A study of Mus musculus with 6 samples.

Results

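The genes described here are 6 enzymes of sterol synthesis (Hmgcs1, Idi1, Fdft1, Sqle, Lss and Cyp51) and Insig1, the endoplasmic reticulum protein that holds back the pathway when sterol is plentiful. They were chosen with earlier results of these data known. Each was picked by gene symbol from the table of gene counts, and all 7 were found among its 15168 genes. None of the 7 takes up sterol from outside the cell, so they are called sterol synthesis enzymes and Insig1 below. RNA was sequenced from macrophages sorted out of full-thickness wounds on the dorsal skin of female wild-type C57BL6/J mice at Day 3 post-wounding. There were 3 samples from young mice of 12 weeks and 3 from aged mice of 24 months, and both groups carried wounds. No sample came from unwounded skin, from males or from another day. The samples carry the set letters A, B and C in each age group. The labels do not say whether a sample is a single mouse or a pool, so p-values measure the spread between these samples only. The sorting gate took CD45+ CD11b+ F4/80+ CD64+ cells and, by the study's methods, had no step that removed Ly6G+ cells.

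The samples held 15270103 to 17927483 counts in genes, and 1494 to 2769 of them fell on the 7 genes. Values below are CPM, counts scaled to a common library size after TMM correction for composition, in which a single count was worth 0.0553 to 0.0701 CPM. All 8 macrophage markers examined were detected in every sample, among them Csf1r at 635 to 868 CPM and Adgre1, which encodes F4/80, at 172 to 357 CPM. Adgre1 was lower in the aged samples by 0.69 on the log2 scale (edgeR adjusted p = 0.0292). Across all 11878 genes tested, 9.73% passed an adjusted p of 0.05 as higher in aged macrophages and 7.97% as lower, while in 38.2% of them the age groups did not overlap in CPM and in 19.2% all 3 aged samples were above all 3 young ones. Because these are bulk samples, fewer cells of a kind and less RNA per cell cannot be told apart.

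Cells build sterols from acetyl-CoA. The mevalonate arm, where HMGCS1 and IDI1 act, makes the isoprenoid units, which are joined to farnesyl diphosphate. FDFT1 then condenses farnesyl diphosphate to squalene, SQLE oxidises it, LSS closes the rings to lanosterol and CYP51 begins the trimming that ends in cholesterol. The transcription factor SREBP-2 drives most of these genes when membrane sterol is low, and INSIG1, itself a target of SREBP-2, keeps the SREBP escort protein SCAP in the endoplasmic reticulum when sterol is high. Macrophages that clear dead cells also take in ready-made sterol, so synthesis, uptake, storage and export are all active parts of their lipid handling.

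In aged wound macrophages Insig1, Hmgcs1 and Cyp51 were higher, at 1.95-fold, 1.92-fold and 1.77-fold of the young level. Idi1, Fdft1, Sqle and Lss did not pass the test, and Sqle had almost the same mean in both age groups. Thus 3 of the 7 genes passed as higher, against 9.73% of all genes tested, and 0 passed as lower, against 7.97%. DESeq2 and limma-voom also called 0 of them lower, and 0 were lower at an unadjusted p under 0.05 in edgeR. These 3 genes were also the ones whose age groups did not overlap in CPM, against the 19.2% of all genes given above. The median log2 fold change of the 7 genes was 0.38, against -0.02 for all genes tested. Because the 7 genes were chosen with earlier results of these data known, these comparisons with all genes are a description without a test. The 7 genes summed to 99.9, 88.3 and 98.7 CPM in young A, B and C and to 131, 176 and 149 CPM in aged A, B and C. None of the 3 differences exceeded 2-fold, whereas 4.59% of all genes both passed the adjusted p of 0.05 and were over 2-fold higher, and 4.2% did so as lower.

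**Figure D1:**
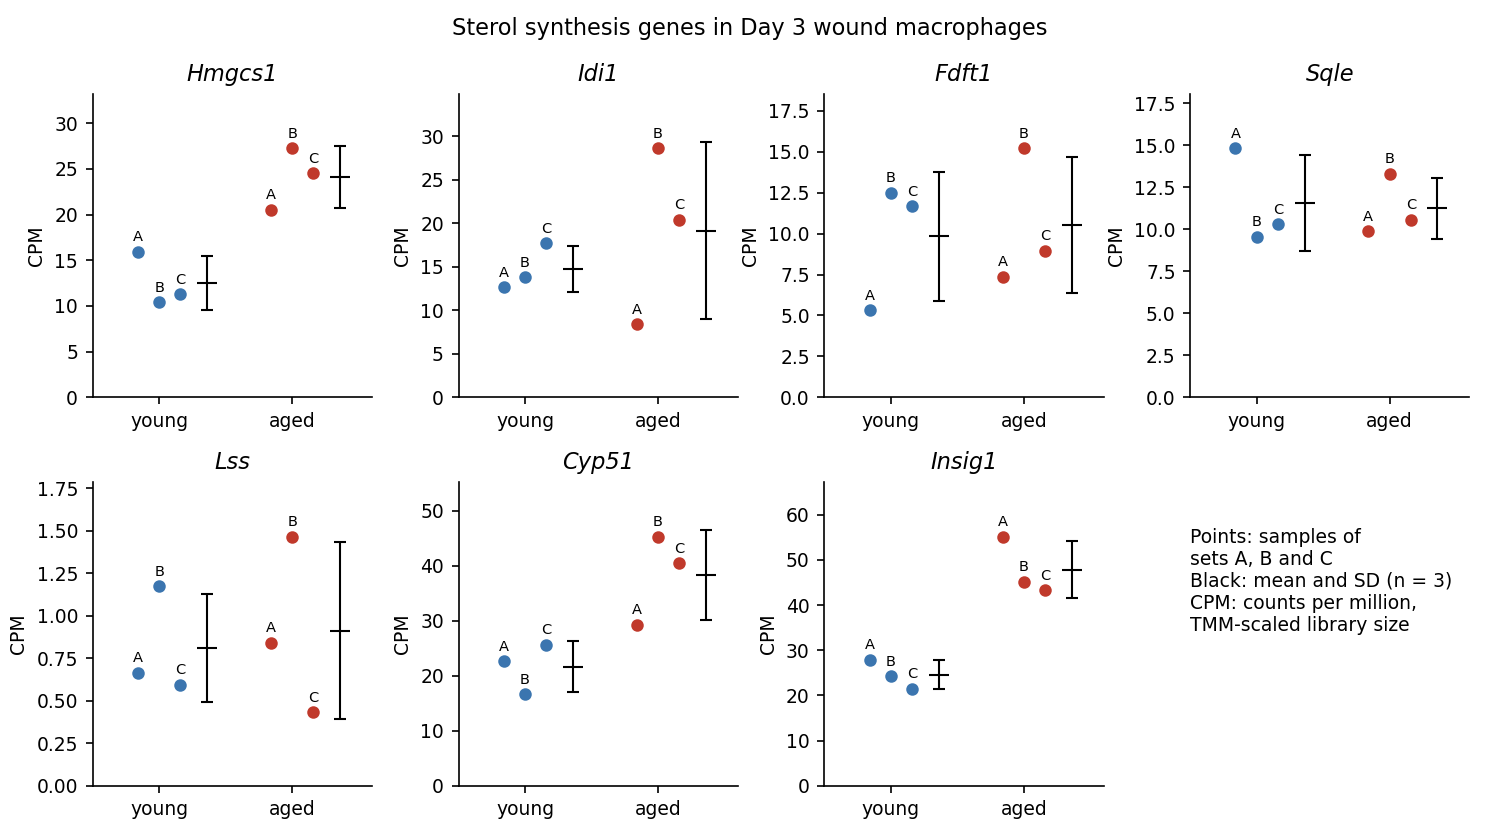
CPM of the 7 genes in each sample, with young samples beside aged samples, set letters at the points and a bar at each group mean. The aged points of Hmgcs1, Cyp51 and Insig1 lie above every young point, while the groups of Idi1, Fdft1, Sqle and Lss overlap.

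The promoters of the 3 genes that were higher are shown and can be read for the elements that SREBP-2 and its partner factors are known to use. SREBP-2 drives most of the 7 genes, so belonging to its programme does not set these 3 apart. The windows of Idi1 and Lss were searched too but are not printed. Sequences are from RefSeq on GRCm38.p6, 5′ to 3′ on the gene's strand, and 5 of the 7 genes had a window (not Fdft1 and Sqle). Capitals mark the sterol regulatory element core TCACNCCAC, the CCAAT box in either direction (ATTGG when read from the other strand) and the E-box CACGTG. The Hmgcs1 stretch covers chr13:119690101-119690350 on the plus strand and ends at the base before the RefSeq start. The Insig1 stretch covers chr5:28071162-28071362 on the plus strand. For Cyp51 only the 29 bases around its CCAAT box are printed, chr5:4104710-4104738 on the minus strand, which lie inside the gene as the GENCODE annotation draws it.
Hmgcs1: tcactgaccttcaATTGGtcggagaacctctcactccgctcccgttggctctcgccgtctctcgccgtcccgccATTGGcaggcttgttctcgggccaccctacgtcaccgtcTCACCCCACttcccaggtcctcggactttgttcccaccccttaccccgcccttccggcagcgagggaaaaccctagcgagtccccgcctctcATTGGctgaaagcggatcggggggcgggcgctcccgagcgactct
Insig1: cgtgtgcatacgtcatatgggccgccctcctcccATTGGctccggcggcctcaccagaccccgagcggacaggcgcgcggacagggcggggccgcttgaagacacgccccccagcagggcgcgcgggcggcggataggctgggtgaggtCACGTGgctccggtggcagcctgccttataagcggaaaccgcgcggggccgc
Cyp51: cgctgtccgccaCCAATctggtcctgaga

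The core was found in 1 of the 5 windows, that of Hmgcs1, where TCACCCCAC began 137 bases before the start. It was in 1.24% of all 32851 RefSeq windows of 300 bases and in 1.33% of the 75 windows of the other pathway genes. CCAAT was found in 5 of 5 windows on either strand, against 37.4% of all windows and 50.7% of the 75 windows of the other pathway genes listed, and on the forward strand alone in 1 of 5, that of Cyp51. Hmgcs1 had CCAAT boxes beginning 237, 176 and 45 bases before the start, Insig1 at 216 and Cyp51 at 29. The GC box GGGCGG, which is not in capitals above, was also in 5 of 5 windows, in 35.7% of all windows and in 62.7% of those of the other pathway genes. CACGTG was found in 1 of 5 windows, that of Insig1, 101 bases before the start. It was in 7.15% of all windows and in 12.0% of those of the other pathway genes. Members that were higher in aged macrophages and members that were not therefore both held CCAAT and GC boxes. No match overlapped another in these windows. A match is only a match of letters, and binding was not measured.

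**Figure D2:**
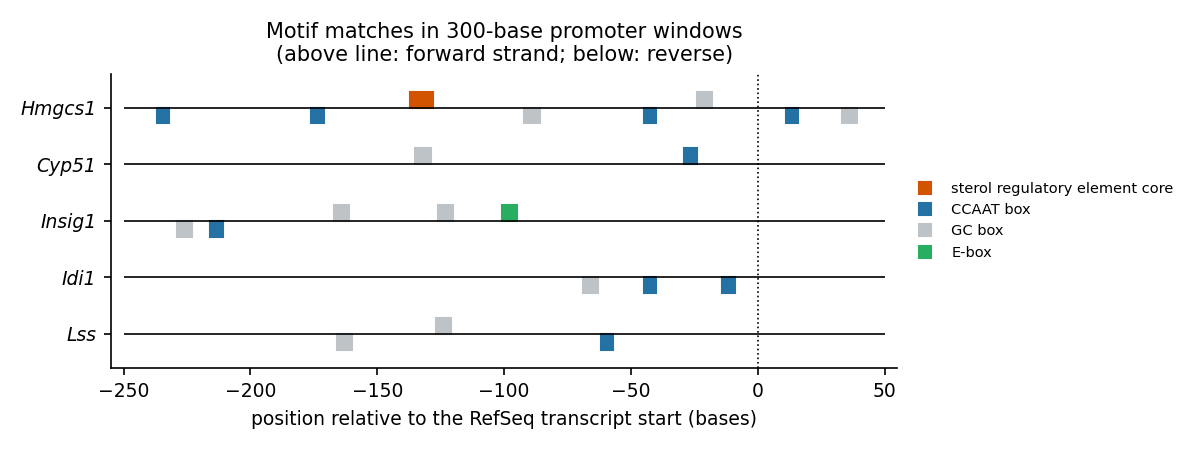
Positions of the motif matches in the RefSeq promoter windows of 5 genes, by distance from the start site in bases. Every window holds a CCAAT box and a GC box, and the single sterol regulatory element core lies in the Hmgcs1 window.

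Hmgcs1 (chromosome 13, 119690379 to 119708260, plus strand, mm10) encodes the cytosolic synthase that makes HMG-CoA, the precursor of mevalonate. It was at 15.9, 10.4 and 11.3 CPM in young A, B and C and at 20.5, 27.3 and 24.5 CPM in aged A, B and C. All 3 aged samples were above all 3 young samples, and the nearest pair was young A and aged A. The mean was 12.5 ± 2.97 CPM in the young and 24.1 ± 3.39 CPM in the aged samples (SD, n = 3 each). The log2 fold change was 0.94 (SE 0.22, 95% interval 0.46 to 1.42, edgeR adjusted p = 0.0195). Within sets, aged exceeded young by 0.36 in A, 1.38 in B and 1.11 in C on the log2 CPM scale. An antisense transcript, Gm48342, shares 557 exon bases with Hmgcs1 but had 0 to 5 counts per sample.

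Idi1 (chromosome 13, 8885501 to 8892451, plus strand) encodes the isomerase that interconverts the isoprenoid units. It was at 12.6, 13.8 and 17.7 CPM in young A, B and C and at 8.41, 28.6 and 20.4 CPM in aged A, B and C. The lowest and the highest of the 6 values were both aged samples, so the groups overlapped. The mean was 14.7 ± 2.67 CPM in the young and 19.1 ± 10.2 CPM in the aged samples (SD, n = 3 each). The log2 fold change of 0.38 did not pass (interval -0.41 to 1.18, edgeR adjusted p = 0.481). Idi1 shares 323 exon bases with Gm48574 on the opposite strand.

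Fdft1 (chromosome 14, 63145150 to 63179578, minus strand) encodes squalene synthase, the enzyme that commits carbon to sterols. It was at 5.31, 12.5 and 11.7 CPM in young A, B and C and at 7.36, 15.2 and 8.96 CPM in aged A, B and C. In both age groups sample A was the lowest and sample B the highest. Means were 9.83 ± 3.94 and 10.5 ± 4.16 CPM (SD, n = 3 each), with a log2 fold change of 0.10 (interval -0.70 to 0.90, edgeR adjusted p = 0.871). Fdft1 shares 774 exon bases with Ctsb, the cathepsin B gene on the opposite strand. Ctsb was at 10454 CPM in the young and 6998 CPM in the aged samples on average (log2 fold change -0.58, edgeR adjusted p = 0.0979). The library kit does not mark strand, so reads in the shared bases cannot be told apart, and their part in the Fdft1 value was not tested.

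Sqle (chromosome 15, 59315077 to 59331192, plus strand) encodes squalene epoxidase, a rate-limiting oxygenase of the pathway. It was at 14.8, 9.56 and 10.3 CPM in young A, B and C and at 9.88, 13.3 and 10.6 CPM in aged A, B and C. The highest value was a young sample and the 2 groups covered much the same range. Means were 11.6 ± 2.85 CPM in the young and 11.3 ± 1.82 CPM in the aged samples (SD, n = 3 each). The log2 fold change was -0.04, with an interval of -0.57 to 0.49 (edgeR adjusted p = 0.923). That interval lies below the fold changes of Hmgcs1, Cyp51 and Insig1, although its upper end overlaps the intervals of Hmgcs1 and Cyp51.

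Lss (chromosome 10, 76531588 to 76557138, plus strand) encodes lanosterol synthase, which closes the sterol rings. It was the scarcest of the 7 genes, with 12, 20 and 9 counts in young A, B and C and 12, 23 and 7 counts in aged A, B and C. These are 0.664, 1.17 and 0.594 CPM in the young and 0.841, 1.46 and 0.432 CPM in the aged samples. Sample B was again the highest of each age group. The log2 fold change of 0.17 had an interval from -1.09 to 1.42 (edgeR adjusted p = 0.864), which includes a 2-fold difference in either direction. Lss shares 381 exon bases with 4930483K19Rik, a transcript on the opposite strand.

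Cyp51 (chromosome 5, 4081145 to 4104746, minus strand) encodes lanosterol demethylase, the first step after ring closure. It was at 22.7, 16.6 and 25.6 CPM in young A, B and C and at 29.3, 45.3 and 40.5 CPM in aged A, B and C. Every aged sample was above every young one, with young C and aged A closest. The mean rose from 21.6 ± 4.60 to 38.4 ± 8.21 CPM (SD, n = 3 each). The log2 fold change was 0.83 (SE 0.22, 95% interval 0.34 to 1.32, edgeR adjusted p = 0.0314). Within sets, aged exceeded young by 0.37 in A, 1.44 in B and 0.66 in C on the log2 CPM scale. Cyp51 shares 166 exon bases with Akap9 on the opposite strand, whose own log2 fold change was 0.07 (edgeR adjusted p = 0.828).

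Insig1 (chromosome 5, 28071363 to 28078662, plus strand) is the feedback regulator and no enzyme. It was at 27.9, 24.3 and 21.5 CPM in young A, B and C and at 55.1, 45.2 and 43.2 CPM in aged A, B and C. The 2 groups were far apart, with no aged sample under 43.2 CPM and no young sample over 27.9 CPM. The mean was 24.5 ± 3.21 CPM in the young and 47.9 ± 6.37 CPM in the aged samples (SD, n = 3 each). The log2 fold change was 0.96 (SE 0.18, 95% interval 0.57 to 1.35, edgeR adjusted p = 0.00975). Within sets the difference was 0.98 in A, 0.89 in B and 1.01 in C on the log2 CPM scale. In set A, aged was below young for Idi1 and Sqle, at -0.58 each. In set C it was below for Fdft1 (-0.38) and Lss (-0.37). What the set letters mark is not given, so these differences are a description. No other annotated gene overlaps Insig1 or Sqle.

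The calls for the 3 genes were not equally firm when a sample was left out. Insig1 passed in 5 of 6 such fits and missed without young C (edgeR adjusted p = 0.0648). Hmgcs1 passed in 3 of 6, and missed without young B (0.0656), young C (0.0950) or aged C (0.0665). Cyp51 passed in 2 of 6, without young A or aged A, and missed without young B (0.0950), young C (0.0788), aged B (0.0762) or aged C (0.102). The fold changes themselves moved less, between 0.85 and 1.07 for Insig1, 0.83 and 1.16 for Hmgcs1 and 0.67 and 0.99 for Cyp51. Idi1 depended on aged samples A and B, with a log2 fold change of 0.74 without aged A (edgeR adjusted p = 0.0654) and -0.01 without aged B. The median over the 7 genes moved with it, to 0.74 without aged A and -0.01 without aged B.

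**Figure D3:**
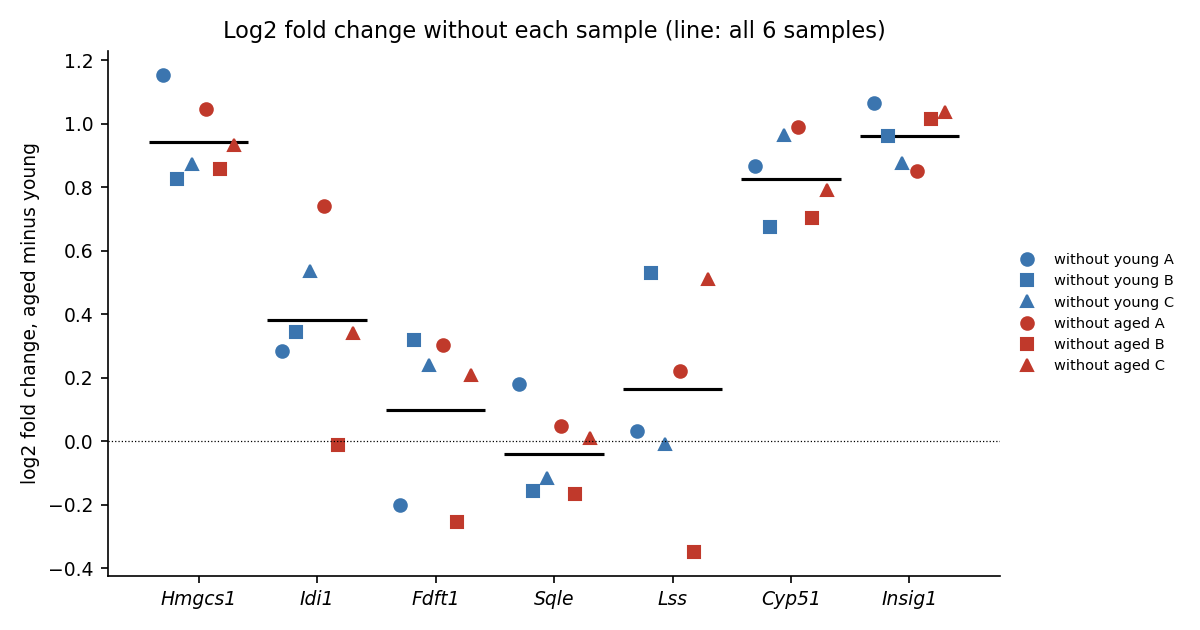
Log2 fold change (aged minus young) of each of the 7 genes with all 6 samples and with each sample left out in turn. Insig1, Hmgcs1 and Cyp51 stay above 0.67 in every fit, while Idi1, Fdft1, Sqle and Lss cross 0.

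Aged B had the highest level of all 6 enzymes among the aged samples, and it also stood apart in genes of other cells. A list of 15 keratinocyte markers, 12 of them in the table, summed to 10.3 to 25.4 CPM in young samples. In aged A, B and C it summed to 41.3, 239 and 46.1 CPM. Outside aged B most of this sum was carried by Dmkn. That gene was at 18.9, 8.15 and 23.3 CPM in young A, B and C. In aged A, B and C it was at 31.3, 40.2 and 42.2 CPM. Krt14, a basal keratinocyte keratin, had 0, 3 and 1 counts in young A, B and C and 11, 1259 and 14 in aged A, B and C, and Krt5 had 0 counts in aged A and C. Of the 12 genes, 3 passed the filter on low counts, Krt14 through its aged counts, so no count of calls is given for this list. The other 2, Dmkn and Sfn, had counts in every sample. Both passed as higher, at 1.18 for Dmkn (edgeR adjusted p = 0.0325) and 2.36 for Sfn (0.0329). The age groups overlapped for Sfn, at 2.66 CPM in young A and 2.04 CPM in aged C. The 10 fibroblast markers summed to 26.1 to 43.1 CPM in young samples and to 12.5, 127 and 38.5 CPM in aged A, B and C, and none of the 8 tested passed. Without aged B, the log2 fold change was 0.86 for Hmgcs1 (edgeR adjusted p = 0.0459), 1.01 for Insig1 (0.0154) and 0.70 for Cyp51 (0.0762).

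Other marker lists differed in whether they moved with age. Over all genes tested, 9.73% passed as higher and 7.97% as lower. Of 16 proliferation genes, 12 passed as lower and 1, Mki67, as higher, and their sum was 194 to 343 CPM in the young and 142 to 167 CPM in the aged samples. Of 15 neutrophil markers tested, 4 passed as higher, and the sums overlapped at 719 to 1223 CPM in the young and 930 to 1592 CPM in the aged samples. The endothelial list summed to 12.0 to 12.7 CPM in the young and 25.9 to 31.5 CPM in the aged samples, but the sum was carried by Pecam1, which passed as higher, from 8.03 to 25.9 CPM. The other 2 tested genes of the list, Kdr and Vwf, were at -0.40 and -0.38 without passing, and Cdh5, too low to test, averaged 0.429 and 0.127 CPM. The 8 lymphocyte markers in the table summed to 3.50 to 5.31 CPM in the young and 2.55 to 3.78 CPM in the aged samples, and the sebocyte and adipocyte markers to 58.3 to 90.1 and 78.7 to 96.2 CPM. None of the tested genes of these last 2 lists passed in edgeR, and DESeq2 called 1 lymphocyte gene lower. Of the 8 macrophage markers, Itgam and Cd14 passed as higher and Adgre1 as lower. The part of these cells or states in the sterol gene differences was not tested.

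Ratios between the genes were also taken within each sample. Counts of Hmgcs1 and Sqle were nearly equal in every young sample, with ratios of 1.07, 1.09 and 1.10 in A, B and C. In aged A, B and C the ratios were 2.08, 2.05 and 2.32. The mean ratio was 1.09 ± 0.0106 in young and 2.15 ± 0.149 in aged samples (SD, n = 3 each), a difference of 0.98 on the log2 scale. This ratio is taken within a sample and does not depend on how the samples are scaled.

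Cyp51 counts were 1.53, 1.74 and 2.49 times those of Sqle in young A, B and C, and 2.96, 3.402 and 3.84 times in aged A, B and C. Insig1 counts were 1.88, 2.54 and 2.08 times those of Sqle in young A, B and C, and 5.58, 3.397 and 4.09 times in aged A, B and C. Of the 21 pairs among the 7 genes, these 3 were the pairs whose ratios did not overlap between age groups. A ratio to Sqle that was higher in all aged samples was found for 17.1% of all genes. These ratios were chosen after the values were seen and are given as a description without a test.

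**Figure D4:**
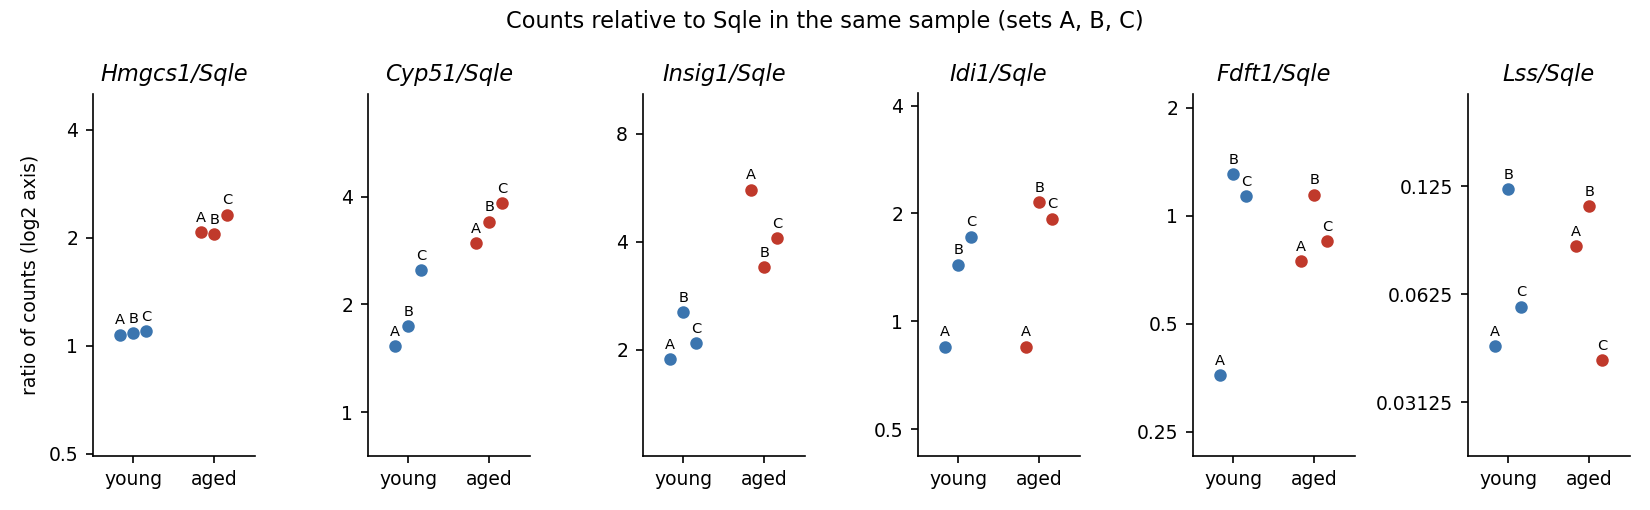
Ratio of the counts of the other 6 genes to Sqle counts in the same sample, on a log axis, for young and aged samples with set letters. The ratios of Hmgcs1, Cyp51 and Insig1 lie higher in all aged samples, and those of Idi1, Fdft1 and Lss overlap.

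Levels of different genes are comparable only per length, so CPM was divided by the length of each gene's exons in kilobases. On this scale the order of the mean levels was the same in both age groups. Insig1 was highest, at 7.94 CPM per kb in young and 15.5 in aged samples, followed by Cyp51 (4.90 and 8.69), Idi1 (4.19 and 5.46), Hmgcs1 (2.73 and 5.25), Fdft1 (2.33 and 2.49), Sqle (2.09 and 2.03) and Lss (0.0751 and 0.0846). Insig1 stood above and Lss below all others in every sample group. Cyp51 and Idi1 overlapped in both ages. Hmgcs1, Fdft1 and Sqle overlapped in young samples, whereas in aged samples Hmgcs1 lay above Fdft1 and Sqle and overlapped Idi1. The exons of all Lss transcripts together cover 10787 bases, which lowers its value per kb.

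The genes around the 7 were described from lists of the pathway. The counts given for each list stand beside the 9.73% of all genes that passed as higher and the 7.97% that passed as lower. Of the 5 other tested genes of the mevalonate arm (Acat2, Mvk, Pmvk, Mvd and Fdps), 0 passed in either direction, and the median log2 fold change was 0.14. The highest was Mvd, the decarboxylase that makes isopentenyl diphosphate, at 0.65 (edgeR adjusted p = 0.0749), and the lowest was Mvk, mevalonate kinase, at -0.92 (0.133). At an unadjusted p under 0.05 edgeR gave 1 higher and 1 lower, and DESeq2 and limma-voom called 0.

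After lanosterol, 2 of 10 tested genes rose and 0 fell in edgeR, with a median of -0.05, and DESeq2 and limma-voom gave the same counts. Lbr, a sterol reductase that is also a nuclear lamina receptor, rose from 33.2 ± 9.10 to 58.9 ± 7.58 CPM (log2 fold change 0.83, edgeR adjusted p = 0.0267). Msmo1, which removes methyl groups just after Cyp51, was at 86.2, 46.3 and 62.2 CPM in young A, B and C and at 89.0, 125 and 115 CPM in aged A, B and C. Its log2 fold change was 0.75 (edgeR adjusted p = 0.0487), and the call was lost with the replicate block (0.0649) or with all genes kept (0.0589). Within the same list, 4 genes had all aged samples below all young ones, as 19% of all genes did, and did not pass: Dhcr7 at -0.99, Nsdhl at -0.70, Tm7sf2 at -0.68 and Erg28 at -0.64. These 4 were picked out after their values were seen, and 3 of them were lower at an unadjusted p under 0.05. Dhcr7, which makes cholesterol from its last precursor, averaged 4.03 CPM in the young and 2.03 CPM in the aged samples (edgeR adjusted p = 0.0874).

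**Figure D5:**
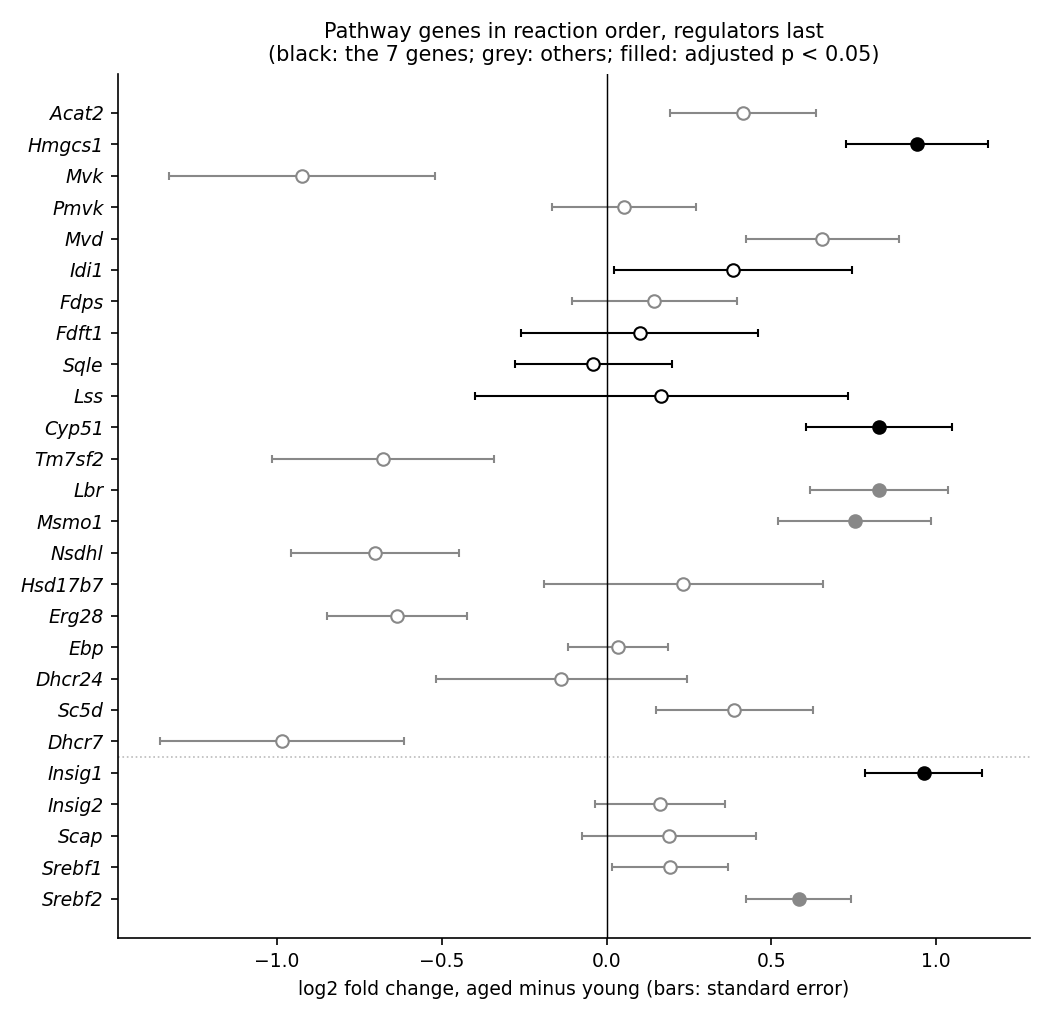
Log2 fold change (aged minus young) for the 7 genes in black and other genes of sterol synthesis and its control in grey, in reaction order, with bars of 1 standard error and filled points for those that passed. The passing genes lie on both sides of lanosterol, and values under 0 occur both early (Mvk at -0.92) and late (Dhcr7 at -0.99).

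In the machinery that senses sterol, 1 of 10 tested genes rose, near the 9.73% of all genes. None fell, against 7.97% of all genes, and the median was 0.28. The riser was Srebf2, which encodes SREBP-2. It was at 46.4, 36.7 and 40.2 CPM in young A, B and C and at 57.9, 65.4 and 61.6 CPM in aged A, B and C. All aged values were above all young ones, with a log2 fold change of 0.58 (edgeR adjusted p = 0.0331). The Srebf2 call held in 2 of 6 fits with a sample left out. Srebf1, the gene for the fatty acid branch, was at 0.19 (edgeR adjusted p = 0.473), Scap at 0.19 (0.644) and Insig2, the second INSIG, at 0.16 (0.594). Rnf139, a sterol-sensing ubiquitin ligase, had the highest value of the list, 0.64, and did not pass (0.0637), though it did with the replicate block (0.0343), DESeq2 (0.0422) and quality weights in voom (0.0148). At an unadjusted p under 0.05, 3 of the 10 were higher and 0 lower in edgeR, and DESeq2 called 2 higher and 0 lower.

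Among 18 tested genes of sterol uptake and trafficking, 2 rose and 2 fell, with a median of 0.25. Osbp, which exchanges cholesterol between the endoplasmic reticulum and the Golgi, rose from 15.97 ± 2.66 to 42.4 ± 10.3 CPM (log2 fold change 1.41, edgeR adjusted p = 0.00590). Soat1, which esterifies cholesterol for storage, rose from 124 ± 23.1 to 223 ± 2.49 CPM (0.85, adjusted p = 0.0143). Npc2, which hands cholesterol out of the lysosome, fell from 1164 ± 172 to 725 ± 65.8 CPM (-0.68, adjusted p = 0.0308). Tmem97, a sterol-responsive membrane protein, fell from 25.7 ± 2.72 to 11.8 ± 2.41 CPM (-1.12, adjusted p = 0.00889).

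Of 12 tested fatty acid genes, most of them governed by SREBP-1, 0 rose and 2 fell in edgeR and in DESeq2, with a median of -0.62, and 2 were higher and 4 lower at an unadjusted p under 0.05. Scd2, a stearoyl-CoA desaturase, fell from 17.6 ± 1.70 to 9.74 ± 2.43 CPM (log2 fold change -0.85, edgeR adjusted p = 0.0317), and Mid1ip1, which activates acetyl-CoA carboxylase, fell from 34.6 ± 4.04 to 19.02 ± 2.63 CPM (-0.86, adjusted p = 0.0146). No test of the difference between these genes and the sterol enzymes was made.

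The 11 tested genes of the LXR and oxysterol arm, through which cells answer excess sterol, had 1 riser and 2 fallers with a median of -0.05. Lpcat3, a phospholipid acyltransferase, rose from 37.0 ± 3.89 to 53.6 ± 5.85 CPM (0.53, edgeR adjusted p = 0.0488), a call that was lost with limma-voom (0.0508), the replicate block (0.0571) or all genes kept (0.0634). Apoe, the apolipoprotein that carries cholesterol away from macrophages, fell from 14081 ± 987 to 7771 ± 1526 CPM (-0.86, adjusted p = 0.0244). The other faller was Scd2, which is on both lists. Abca1 and Abcg1, the cholesterol exporters, were at 0.53 (adjusted p = 0.208) and -0.20 (0.487). Of 9 genes of the isoprenoid branch, Nus1, a subunit of the dolichol-making prenyltransferase, rose (0.75, edgeR adjusted p = 0.0454, and 0.0548 with all genes kept) and 0 fell by edgeR or DESeq2, with 2 higher and 2 lower at an unadjusted p under 0.05. Over the 72 tested genes of all these lists, 7 rose and 5 fell and the median was 0.13, close in share to the 9.73% and 7.97% of all genes. Osbp passed in 6 of 6 fits with a sample left out and Tmem97 in 5, Soat1 and Mid1ip1 in 4, Lbr, Msmo1, Srebf2, Apoe and Scd2 in 2, and Lpcat3, Npc2 and Nus1 in 1. Without young C, 1 of the 12, Osbp, still passed.

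The 5 genes whose levels followed the mean profile of the 7 most closely over the 6 samples were Dnajc25, Nin, Cd36, Ankhd1 and Smg1, with Pearson r of 0.99 for each. Cd36, the scavenger receptor for oxidised lipoprotein and fatty acids, was at 341, 351 and 333 CPM in young A, B and C and at 460.0, 844 and 514 CPM in aged A, B and C. Its highest value was in aged B, where the mean profile of the 7 genes also peaks, as the choice of closest genes favours. The 5 were taken as the highest of all tested genes over only 6 samples, so r is a description.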

How the data were processed

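RNA of sorted Day 3 wound macrophages from 3 young and 3 aged samples was amplified with the SMART-Seq v4 kit, which does not mark strand, and sequenced in pairs. The authors aligned reads with STAR 2.7.3a and quantified Ensembl release 102 transcripts (mm10) in Partek Flow, and deposited estimated counts per gene, which were rounded to whole numbers here. Between 22.9% and 25.3% of values were not whole (tolerance 0.01). Multi-mapped and overlapping reads can therefore be shared between genes. Whether counting used strand is not given in the sources used here. The authors' normalised values, fold changes and p-values of aged against young were not used.

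Genes were filtered with filterByExpr, scaled by TMM and tested with edgeR 4.0.16 (quasi-likelihood, R 4.3.3, no covariate). The p-values were adjusted by Benjamini-Hochberg over 11878 genes and called at 0.05. Standard errors were the log2 fold change divided by the root of F, and 95% intervals use the t quantile at the 10.5 degrees of freedom of the test. All 7 genes passed the filter. DESeq2 1.42.0, limma 3.58.1 (voom), other scaling and filters, a replicate block and leaving out each sample were alternatives. In counts simulated from these samples for 11921 genes, edgeR called 31.6% of genes changed 2-fold and 99% of those changed 4-fold. Samples of the same age differed by more than sampling noise.

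The 7 genes, lists and motifs were chosen with earlier results of these data known. Named genes were the 7, every gene of a pathway list that passed, otherwise its highest and lowest, and the 5 genes most correlated with the mean of the 7. Other pathway genes (Rnf139, Srebf1, Scap, Insig2, Abca1, Abcg1, Dhcr7, Nsdhl, Tm7sf2, Erg28 and Acss2) were named after their values were seen. Of the listed genes, 3 are not reported here. Promoters were RefSeq windows of GRCm38.p6, from 250 bases before to 50 after the start, and printed stretches stop before the GENCODE gene start, except the Cyp51 site.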

Additional observations from a re-analysis of the deposited data

How the results depend on the processing

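The number of the 7 genes that passed as higher was 3 with DESeq2, limma-voom, voom with sample quality weights, edgeR scaled by DESeq2 size factors and all genes kept. It was also 3 with the replicate block and with a minimum of 10 counts per sample, which removed Lss. It was 0 when a change over 2-fold was also asked, and 0 to 3 when a sample was left out (0 without young C, 1 without young B or aged C, 2 without aged B). The median of the 7 was -0.012 to 0.74 in those fits. Of 72 tested genes of the pathway lists, 7 passed as higher and 5 as lower in the main test. The counts were 1 and 1 over 2-fold and 14 and 13 with quality weights. With all genes kept 4 were higher, and with a sample left out 1 to 11 were higher and 0 to 10 lower. Calls over all genes moved too, from 1156 higher and 947 lower of 11878 to 545 and 499 over 2-fold. With quality weights they were 1933 and 1713 of 11878, and with all genes kept 1022 and 808 of 15168. With a sample left out they were 151 to 1574 higher and 67 to 1128 lower. With quality weights Fdft1, Sqle and Lss changed sign, to -0.036, 0.023 and -0.072. Leaving out samples took Fdft1 from -0.25 to 0.32, Sqle from -0.17 to 0.18, Lss from -0.35 to 0.53, Idi1 from -0.012 to 0.74 and Acss2 from -0.054 to 0.79. The cause was not tested. CCAAT was in 5 of 5 promoter windows when either strand was searched and in 1 when the forward strand alone was. The count ratios of Hmgcs1, Cyp51 and Insig1 to Sqle, added after seeing the data, kept their direction with rounded counts and without each sample, whereas those of Idi1, Fdft1 and Lss changed sign in some fits with a sample left out, from -0.049 to 0.67, -0.44 to 0.49 and -0.21 to 0.52, each lowest without young A.

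With the set letter as a replicate block, 3 of the 7 genes were higher, and over all genes 1202 were higher and 912 lower, against 1156 and 947 without it. Deviations of samples with the same letter correlated at 0.18 (A), -0.02 (B) and 0.11 (C). Between samples with different letters the correlations ran from -0.22 to 0.14. What the letters mark is not given, and they were not taken as pairs in the main test. Without young C only 151 genes were called higher and 67 lower in all. Lss rests on 7 to 23 counts a sample.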
